A study of Mus musculus with 28 samples.

Results

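Polycomb and histone H3 lysine 27 (H3K27) regulators were followed in 14 primary B-cell lymphomas, each measured untreated and after the DNA-damaging drug Adriamycin (ADR, doxorubicin). The members were 10 named genes, Ezh1, Ezh2, Eed, Suz12, Jarid2, Bmi1, Ring1, Rnf2, Cbx7 and Kdm6b, out of 18193 genes measured, and all 10 had at least 1 probe set. Cells were taken from the nodes of C57BL/6 Emu-myc mice with lymphoma, in which a Myc transgene is active in the B-cell lineage. All cultures, controls included, carried Bcl2 from an MSCVpuro retrovirus with 48 h of puromycin selection, and all grew on NIH 3T3 fibroblasts irradiated with 20 Gy. One culture of each lymphoma was left without drug, and the other received 0.05 µg/ml ADR for 5 days. The labels mark the treated cultures as senescent (TIS), which no measurement used here tests. An age of the mice is not given in the sources used here.

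Polycomb proteins keep genes silent through 2 complexes. Polycomb repressive complex 2 (PRC2) methylates H3K27 through Ezh2 or Ezh1, held together with Suz12 and Eed. PRC1 contains a Cbx protein such as Cbx7 that binds the methyl mark, and its Ring1 or Rnf2 subunit, with a partner such as Bmi1, attaches ubiquitin to histone H2A. Kdm6b removes methyl groups from H3K27. In B cells Ezh2 is abundant in dividing germinal centre cells, and in human germinal centre lymphomas EZH2 carries activating mutations. Loss of Bmi1 or Ezh2 is known to release the Cdkn2a locus, a brake on the cell cycle, in cultured fibroblasts.

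Of the 5 PRC2 members 4 fell after ADR and 1, Ezh1, rose, while none of the 4 PRC1 members passed the test with its brightest probe set. The Ezh1 rise rests on 1 of its 4 probe sets, and the mean of all 4 gave 0.03 (limma, adjusted p = 0.694). Ezh2, Suz12, Jarid2 and Eed fell and Ezh1 rose, so 5 of 10 members passed, against 28.7% of all genes at an adjusted p below 0.05 (limma with lymphoma as a block, Benjamini-Hochberg over all genes). Lower calls numbered 4 of 10 against 13.4% of all genes, and higher calls 1 of 10 against 15.3%. The median change of the members was -0.24, beside -0.0011 over all genes. In the same comparison 18 of 19 measured fibroblast marker genes and 9 of 14 macrophage marker genes rose. With the fibroblast or the macrophage change as a covariate, none of these 5 calls passed (adjusted p from 0.0511 to 0.811 and from 0.231 to 0.550). Those fits called 10.9% and 0.588% of all genes. The macrophage list rose by at least 0.35 in every lymphoma, so no culture pair shows the value at no macrophage change. Values are log2 expression values, a change is ADR minus untreated within a lymphoma, and ± is the standard error (SE) of the fit over n = 14 pairs unless stated. The number of arrays limits the precision. In RNA from whole cultures, fewer cells of a type and less RNA per cell cannot be told apart.

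The stretches of sequence before the starts of 3 PRC2 genes are shown because Ezh2 and Suz12 fell most among the members. Ezh1, the paralog of Ezh2, rose with 1 of its 4 probe sets. They are RefSeq sequences of mouse build GRCm38.p6, with 250 bases ahead of the annotated start, 5′ to 3′ on the gene's strand. Capitals mark a match to the E2F letters TTTGGCGC, TTTCCCGC, TTTGCCGC or TTTCGCGC on either strand. E2F factors drive many replication genes. Ezh2 lies at chr6:47595031-47595280 (minus strand), Ezh1 at chr11:101226464-101226713 (minus strand) and Suz12 at chr11:79992856-79993105 (plus strand). The Ezh2 site below is at chr6:47595009-47595038, and its match begins 4 bases into the transcript.
Ezh2: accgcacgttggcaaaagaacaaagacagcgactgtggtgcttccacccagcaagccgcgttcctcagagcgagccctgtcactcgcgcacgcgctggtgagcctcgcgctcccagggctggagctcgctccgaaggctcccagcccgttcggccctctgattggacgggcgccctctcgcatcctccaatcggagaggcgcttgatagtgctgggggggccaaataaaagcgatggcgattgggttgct
Ezh2 site at the start: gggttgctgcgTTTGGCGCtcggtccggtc
Suz12: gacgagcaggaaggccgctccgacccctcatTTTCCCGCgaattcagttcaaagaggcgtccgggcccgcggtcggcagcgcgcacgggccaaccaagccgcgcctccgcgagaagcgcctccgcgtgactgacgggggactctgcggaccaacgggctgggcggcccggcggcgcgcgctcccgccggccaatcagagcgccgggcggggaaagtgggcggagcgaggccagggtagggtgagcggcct
Ezh1: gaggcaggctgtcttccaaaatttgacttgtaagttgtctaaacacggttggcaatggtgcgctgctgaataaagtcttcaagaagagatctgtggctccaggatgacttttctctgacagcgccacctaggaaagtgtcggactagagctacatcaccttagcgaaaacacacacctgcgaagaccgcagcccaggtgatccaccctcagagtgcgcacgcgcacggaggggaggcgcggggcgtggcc

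Of the 9 members found in the promoter table, Ezh2 and Suz12 held a match in the 300-base window from 250 bases before to 50 after the start. Across all 32851 such windows 2.26% held one. The Suz12 match began at base -219 from the start. The CHR letters TTTGAA, on either strand, were found in the 250 bases ahead of the start of Eed, Suz12 and Cbx7, and in 16.0% of all such stretches. No CHR letters overlap the E2F match of Suz12. A match describes letters and is not evidence of binding, and the letters were chosen with the changes of these genes known. Eed and Jarid2, which fell, and Ezh1, which rose with 1 of its 4 probe sets, had no E2F match in their windows.

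Ezh2, the main PRC2 methyltransferase of dividing cells, ranged from 9.61 to 10.7 (median 10.1) in untreated cultures and from 8.03 to 10.0 (median 8.75) after ADR. In 10 of 14 lymphomas the ADR value lay under the lowest untreated value, yet the groups overlapped. The change was -1.18 ± 0.19 (adjusted p = 1.97e-04), to 0.441 times the untreated level, and 12 of 14 lymphomas were lower. The lymphomas were not alike. Ezh2 changed by -2.15 in 5766, -2.09 in 2949 and -1.93 in 2581, but by -0.07 in 1570, 0.05 in 9584 and 0.09 in 9583. In those last 3 the treated cultures stood at 10.0, 9.66 and 9.88, within the untreated range.

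**Figure D1:**
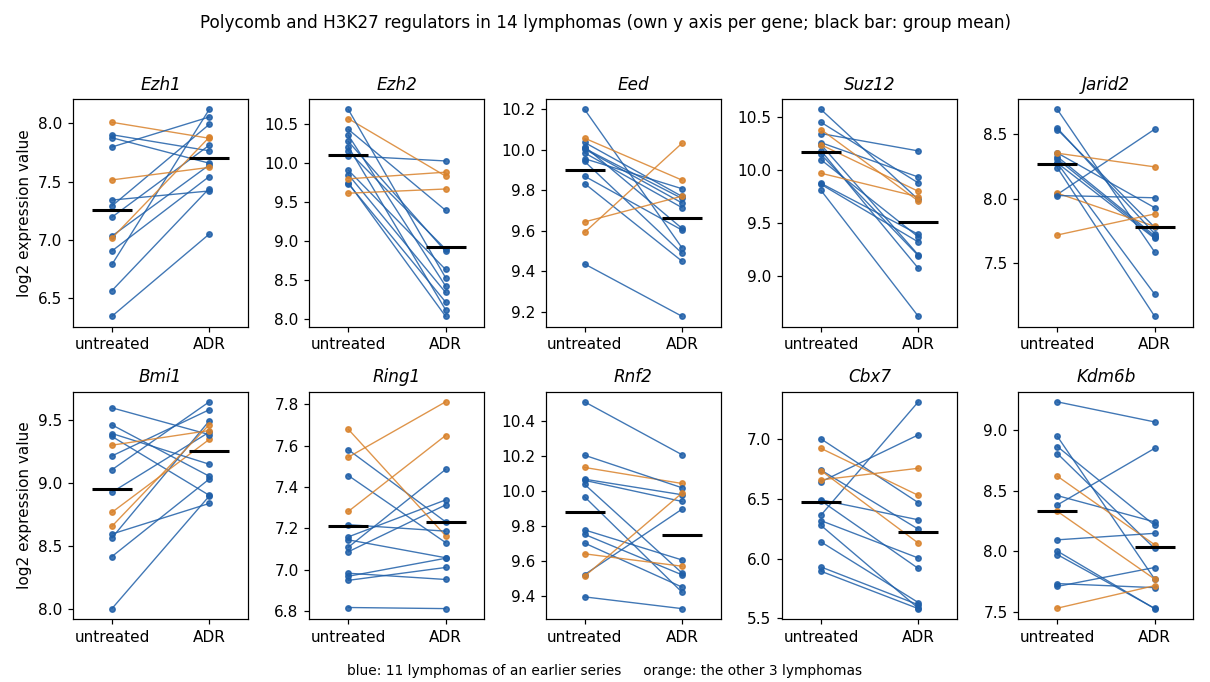
Log2 expression values (y axes, 1 scale per gene) of the 10 members in untreated and ADR cultures, with a line for each of 14 lymphomas, blue for the 11 of an earlier series and orange for the other 3; black bars are group means. Suz12 falls in 14 of 14 lymphomas, and Ezh2 falls from 10.1 to 8.92 on average with 3 nearly flat lines.

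Suz12, the PRC2 scaffold, was lower after ADR in every lymphoma. Untreated values ran from 9.81 to 10.6 (median 10.2) and ADR values from 8.62 to 10.2 (median 9.55), so the groups overlapped although 14 of 14 lymphomas were lower. Across all genes 2.59% were lower in 14 of 14. The change was -0.66 ± 0.09 (adjusted p = 3.76e-05) and lay between -1.18 in 5560 and -0.16 in 6054. All 6 of its probe sets fell, by changes from -0.77 to -0.21, with adjusted p from 1.37e-05 to 0.0148 over all probe sets.

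Eed, the subunit that binds the methyl mark and stimulates the enzyme, moved little. It went from 9.44 to 10.2 (median 9.97) without drug and from 9.18 to 10.0 (median 9.73) with it. The change of -0.23 ± 0.07 was lower in 12 of 14 lymphomas (adjusted p = 0.0216), with overlapping groups. Eed was higher after ADR in 5043 (0.44) and 9584 (0.13). Without lymphomas 403 and 5560 the call was lost, at -0.22 ± 0.08 (adjusted p = 0.0658), and with its dim second probe set averaged in the change was -0.14 (adjusted p = 0.166).

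Jarid2, an accessory factor that helps bring PRC2 to its targets, fell by 0.49 ± 0.12 (adjusted p = 0.00738) in 12 of 14 lymphomas. Untreated values spanned 7.72 to 8.69 (median 8.29) and ADR values 7.09 to 8.54 (median 7.75), again with overlap. It was higher after ADR in 1570 (0.51) and 9584 (0.16). All 3 Jarid2 probe sets fell, by changes of -0.66, -0.49 and -0.46.

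Ezh1, the paralog of Ezh2 that prevails in cells that no longer divide, moved the other way. Its untreated values ran from 6.35 to 8.01 (median 7.24) and its ADR values from 7.05 to 8.12 (median 7.71), with 11 of 14 lymphomas higher. The change was 0.45 ± 0.12 (adjusted p = 0.00820), and the largest was 1.33 in 1570. Only the brightest of 4 Ezh1 probe sets rose. The next brightest read -0.13 ± 0.11 (adjusted p = 0.416), and the other 2, near the low end of the scale, -0.06 and -0.12, so the rise rests on 1 probe set, and the mean of all 4 gave 0.03 (adjusted p = 0.694).

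The difference between both catalytic paralogs was tested on the changes themselves. The Ezh2 change minus the Ezh1 change was -1.63 (95% interval -2.08 to -1.18) and was below 0 in 14 of 14 lymphomas. The exact two-sided sign-flip test gave p = 1.22e-04, the smallest that 16384 flips allow, and adjusted p = 6.10e-04 over 5 paralog pairs. With the other Ezh1 probe sets the difference was -1.05, -1.12 and -1.06 and was below 0 in 12 of 14 lymphomas each, with exact p from 8.54e-04 to 0.00342. This shows unequal change in whole cultures and says nothing of which paralog was more abundant. The difference was not fitted with the fibroblast or macrophage change as a covariate.

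**Figure D2:**
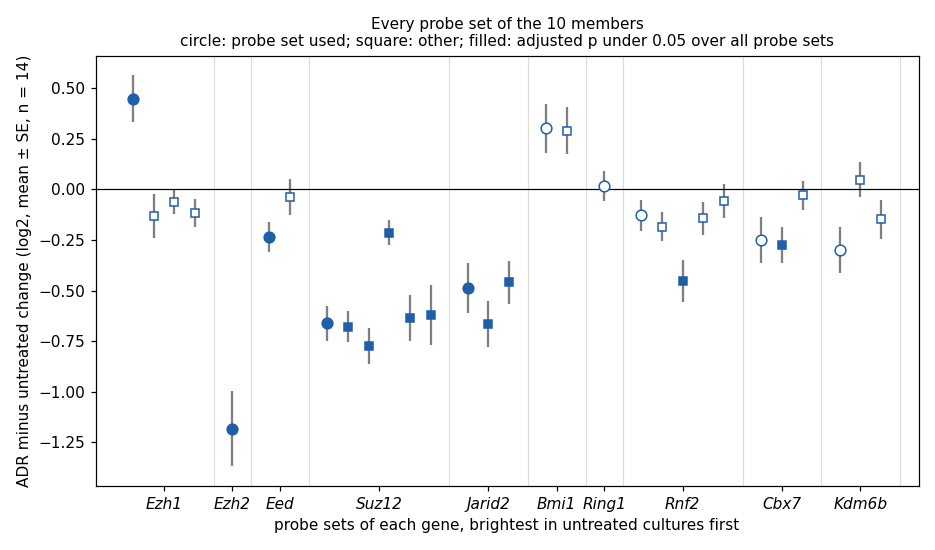
ADR minus untreated change (log2, mean ± SE, n = 14 lymphomas) of all 30 probe sets of the members, from the brightest to the dimmest in untreated cultures within each gene; filled symbols passed an adjusted p of 0.05 over all probe sets. The 6 Suz12 and 3 Jarid2 probe sets are all below 0 and filled, while the 4 Ezh1 probe sets disagree in sign.

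None of the 4 PRC1 members passed the test. Bmi1, the partner of the ubiquitin ligases, ranged from 8.002 to 9.60 (median 9.02) without drug and from 8.84 to 9.64 (median 9.36) with it. Its change was 0.30 ± 0.12 (adjusted p = 0.0730), with 10 of 14 lymphomas higher, and its second probe set read 0.29 ± 0.12. Bmi1 passed with 0.41 ± 0.12 (adjusted p = 0.0184) without lymphomas 403 and 5560, and also when 2581, 403 or 5560 alone was left out (adjusted p = 0.0302, 0.0341 and 0.0499).

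The ligase genes Ring1 and Rnf2 and the chromodomain gene Cbx7 did not pass either. Ring1 spanned 6.82 to 7.68 (median 7.15) and 6.81 to 7.81 (median 7.18), with a change of 0.02 ± 0.07 (adjusted p = 0.905) and 7 lymphomas each way. Rnf2 went from 9.39 to 10.5 (median 9.87) and from 9.33 to 10.2 (median 9.75), a change of -0.13 ± 0.08 (adjusted p = 0.239) that was negative in 12 of 14. Of the 5 Rnf2 probe sets only a dim one passed, at -0.45 ± 0.10 (adjusted p = 0.00378 over all probe sets), and the mean of all 5 passed too, at -0.19 ± 0.05 (adjusted p = 0.0115). Cbx7 ran from 5.89 to 7.005 (median 6.49) and from 5.58 to 7.32 (median 6.19), a change of -0.25 ± 0.11 (adjusted p = 0.124). One of 3 Cbx7 probe sets passed, at -0.27 ± 0.09 (adjusted p = 0.0320). In all, 14 of the 30 probe sets of the members passed, 13 lower and 1 higher, against 26.7% of 34945 probe sets.

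Cbx7 turned on 1 lymphoma. Its change there, in 1570, was 0.95, and without that lymphoma the change was -0.34 ± 0.08 (adjusted p = 0.00666). Then 6 of 10 members passed, against 27.8% of all genes. The ADR array of 1570 had 3′ minus 5′ signals of 0.92 for actin and 0.92 for Gapdh, where the untreated array had 0.28 and 0.0016. It also gave the highest changes of Ezh1, Jarid2, Ring1 and Cbx7, and its part in these was measured by leaving it out, which ended no call. The ADR array of 6054 had a smaller rise of this signal, to 0.38 from 0.02 untreated for Gapdh and to 0.70 from 0.53 for actin.

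Kdm6b, the H3K27 demethylase known from inflammatory and stress responses, did not pass. Its values spanned 7.53 to 9.23 (median 8.35) untreated and 7.53 to 9.06 (median 7.95) after ADR. The change was -0.30 ± 0.11 (adjusted p = 0.0573), negative in 10 of 14 lymphomas and between -1.17 in 3769 and 0.46 in 2581. It passed with arrays centred on their medians (adjusted p = 0.0454), with dim genes left out (0.0398), and without 2581, 403 or 9583 (0.0206, 0.0429 and 0.0406). The next brightest of its 3 probe sets read 0.05 ± 0.09, so the direction also depends on the probe set.

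The other paralog pairs showed no difference of change past the threshold by the exact sign-flip test. Rnf2 minus Ring1 was -0.14 (95% interval -0.28 to -0.0029, adjusted p = 0.128), and over the 11 lymphomas shared with an earlier series it was -0.20 (adjusted p = 0.00732). Bmi1 minus Pcgf2, another subunit of its kind, was 0.25 (-0.12 to 0.62, adjusted p = 0.206), and 0.43 without 403 and 5560 (adjusted p = 0.0220). Cbx7 minus Cbx8 was -0.14 (-0.51 to 0.22, adjusted p = 0.406). Kdm6b minus Kdm6a, the X-linked demethylase, was -0.21 (-0.50 to 0.08, adjusted p = 0.206).

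Of 31 listed further genes of these complexes and of the enzymes that counter them, 29 were measured, 12 fell and 3 rose, with a median change of -0.10. Each was read from its brightest probe set. Over all genes 13.4% fell and 15.3% rose. With the fibroblast change as a covariate, 5 of these 15 calls held (Rbbp4, Mtf2, Yaf2, Crebbp and Ep300), 7 were lost in the same direction and 3 turned direction. That fit called 6 of the 29, against 10.9% of all genes. With the macrophage change as a covariate limma called 0 of the 29, against 0.588% of all genes. There 12 of the 15 calls were lost in the same direction and 3, Rbbp4, Phc1 and Pcgf1, turned direction. At an unadjusted p under 0.05 the macrophage fit had 5 of the 29, beside 1426 genes higher and 1447 lower among all 18193. Among the other PRC2 accessory genes the histone chaperones Rbbp7 (-0.50 ± 0.11, adjusted p = 0.00197) and Rbbp4 (-0.36 ± 0.07, adjusted p = 0.00155) fell, the former in 14 of 14 lymphomas. Mtf2, a Polycomb-like factor, fell too (-0.52 ± 0.09, adjusted p = 3.72e-04). With the fibroblast covariate Rbbp7 stood at -0.25 ± 0.17 (adjusted p = 0.429). Phf19 (-0.03), Aebp2 (0.09), Phf1 (0.27) and Epop (-0.70 ± 0.28, adjusted p = 0.0782) did not pass.

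Of 8 other canonical PRC1 genes the chromodomain gene Cbx2 (-0.72 ± 0.13, adjusted p = 5.92e-04) and the polyhomeotic gene Phc1 (-0.43 ± 0.14, adjusted p = 0.0315) fell, and 6 did not pass. Phc2 (0.21) and Phc3 (0.20), paralogs of Phc1, were among these 6. Variant PRC1, which lacks a Cbx protein, had 5 of 8 genes lower and 1 higher. The CpG island binder Kdm2b (-0.58 ± 0.10, adjusted p = 3.36e-04), Yaf2 (-0.47 ± 0.09), Pcgf1 (-0.35 ± 0.11), Pcgf6 (-0.30 ± 0.09) and L3mbtl2 (-0.21 ± 0.07) fell, while Pcgf3 rose (0.30 ± 0.10, adjusted p = 0.0312). With the fibroblast covariate Pcgf3 turned to -0.04 (adjusted p = 0.904) and L3mbtl2 to 0.02 (0.935). Kdm2b stood at -0.24 (0.321), Pcgf6 at -0.08 (0.807) and Pcgf1 at -0.39 (0.221) in that fit, and the calls of Cbx2 (-0.69, 0.0659) and Phc1 (-0.63, 0.118) were lost too.

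H3K27 can be acetylated where it is not methylated, and both acetyltransferase genes rose. Ep300 was higher in 14 of 14 lymphomas, as were 2.87% of all genes, with a change of 0.40 ± 0.07 (adjusted p = 4.90e-04). Crebbp rose by 0.38 ± 0.12 (adjusted p = 0.0213) in 10 of 14. Kdm6a was at -0.09 ± 0.09 (adjusted p = 0.491) with its brightest probe set and at -0.31 with its most variable one. Asxl1, a subunit of the H2A deubiquitinase that counters PRC1, fell in 14 of 14 lymphomas (-0.64 ± 0.10, adjusted p = 1.63e-04). Its catalytic partner Bap1 fell by 0.21 ± 0.07 (adjusted p = 0.0335), and Asxl2 was at -0.03 ± 0.07. With the fibroblast covariate Bap1 turned to 0.11 ± 0.08 (adjusted p = 0.477) and Asxl1 stood at -0.56 ± 0.17 (0.0517).

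**Figure D3:**
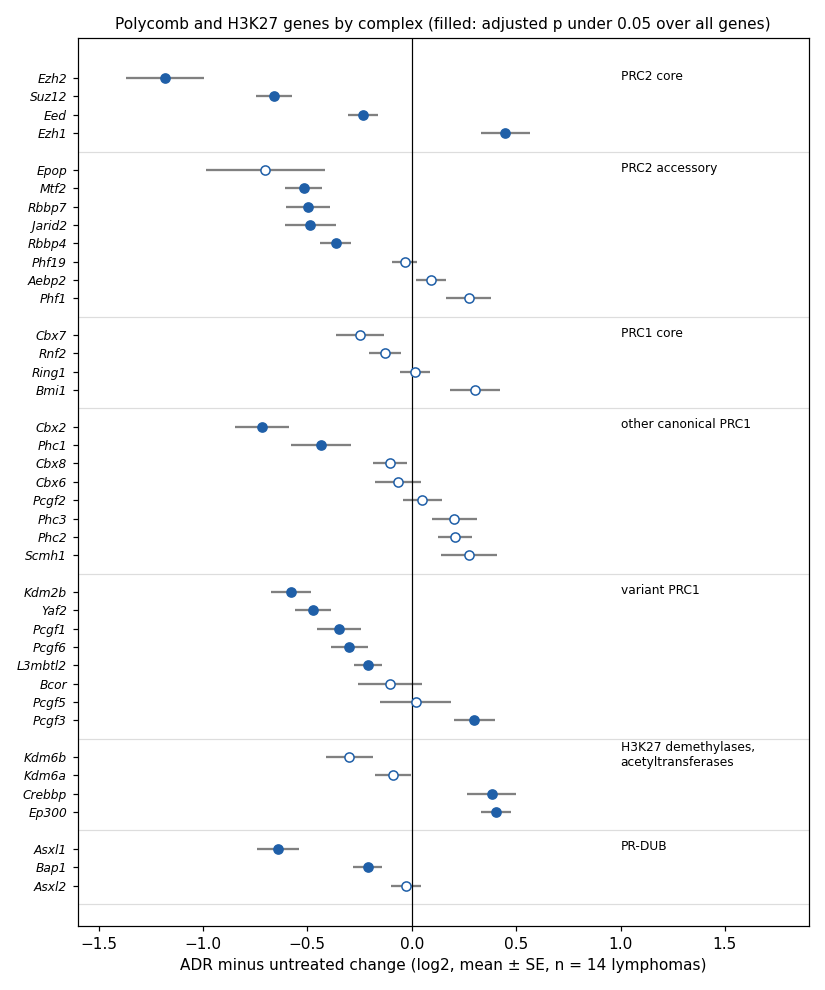
ADR minus untreated change (log2, x axis, mean ± SE, n = 14 lymphomas) of the Polycomb and H3K27 genes, grouped by complex; filled points passed an adjusted p of 0.05 over all genes. Ezh1 at 0.45 is the only filled PRC2 point right of 0, no PRC1 core point is filled, and Ep300 and Crebbp lie at 0.40 and 0.38.

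Of 14 measured genes known as Polycomb targets, 3 rose, 0 fell and 11 did not pass, with a median change of 0.04. Across all genes 15.3% rose and 13.4% fell, so the share that rose was near the background. At an unadjusted p under 0.05, limma placed 2 of these 14 lower, Hoxa5 and Hoxa9, and Cdkn2b higher besides the 3 that rose. At that threshold 3233 of 18193 genes were lower and 3618 higher. Cdkn2a, the classic Bmi1 target, had a mean of 4.10 in both groups (adjusted p = 0.999). Its medians of 3.78 untreated and 3.65 after ADR were near the low end of the scale, but lymphoma 403 stood at 7.30 and 7.64. Cdkn2b was at 0.44 ± 0.20 (adjusted p = 0.115). Hoxd8 (0.84 ± 0.26, adjusted p = 0.0213), Gata4 (0.24 ± 0.07, adjusted p = 0.0215) and Cdkn1a, which p53 also induces (1.11 ± 0.19), rose, while 7 other Hox genes had changes of -0.14 to 0.09. With the fibroblast change as a covariate Hoxd8 turned to -0.35 ± 0.27 (adjusted p = 0.488) and Gata4 to -0.03 (adjusted p = 0.920), and Cdkn1a stood at 0.95 ± 0.33 (adjusted p = 0.0781).

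Proliferation genes fell in the same cultures, and the members' changes were set against them. All 15 measured G2/M genes fell (median change -2.09), and so did 13 of 14 replication genes known as E2F targets (median -1.23). The relation of the Ezh2 change to the G2/M list change did not pass the test, and none was run for the replication list. Across 14 lymphomas Pearson r between the Ezh2 change and the G2/M list change was 0.46, with a permutation p of 0.101 and an adjusted p of 0.603 over 30 relations. Spearman rho was 0.36 (permutation p = 0.210, 0.642 adjusted). Without 2949 and 9584, farthest from the median, r was -0.0084. The 11 lymphomas shared with an earlier series gave 0.31. In 1570 and 9583 the G2/M list mean changed by -2.43 and -2.40 and the replication list mean by -1.66 and -1.65, with Ezh2 at -0.07 and 0.09. In 9584, where Ezh2 was at 0.05, the G2/M list changed by -0.26 and the replication list by -0.02.

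**Figure D4:**
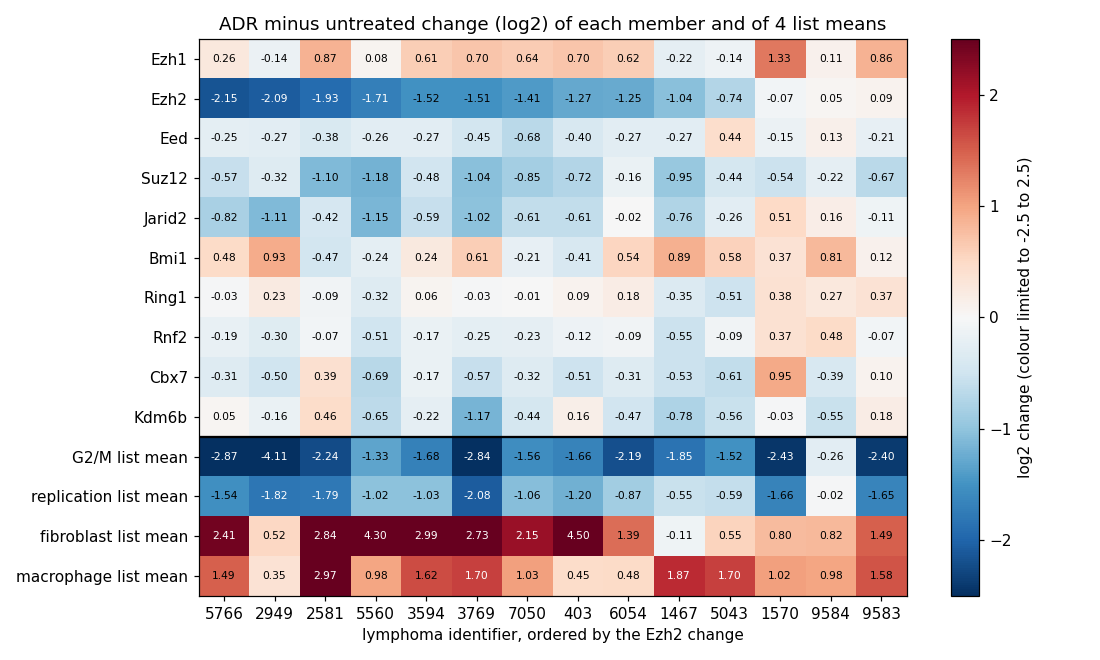
ADR minus untreated changes (log2, printed in each cell and coloured, blue for lower and red for higher) of the 10 members and of 4 list means in each lymphoma, ordered by the Ezh2 change. Ezh2 runs from -2.15 in 5766 to 0.09 in 9583, and the Suz12 row is negative throughout.

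Markers of other cells moved in the same comparison. Of 19 fibroblast genes 18 rose and 0 fell, and their mean level was 4.95 to 5.92 untreated and 5.27 to 9.82 after ADR. Of 14 macrophage genes 9 rose and 0 fell, with a mean level of 5.10 to 8.22 and then 6.12 to 9.19. The B-cell list had a mean level of 8.10 to 9.57 untreated and 7.11 to 10.0 after ADR, but Pax5 averaged 5.59 and 5.40. Of 7 B-cell genes 4 fell. For comparison, 15.3% of all genes rose and 13.4% fell. T-cell markers had a mean level between 4.97 and 6.00, and 0 of 6 changed by the adjusted limma test. Cd2, named after its value was seen, was the 1 of 6 with an unadjusted limma p under 0.05. It averaged 8.09 untreated and 7.61 after ADR, above the list mean. No marker list was at 0, which log2 array values do not give.

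Bmi1 was the 1 member whose change followed the fibroblast list. Their Pearson r of -0.77 had a permutation p of 0.00129, or 0.0387 after adjustment over the 30 relations. By rank the relation was as close, with Spearman rho at -0.77 and a permutation p of 0.00176, but its adjusted p was 0.0528. Leaving out 403 and 5560 gave r = -0.65, and the 11 lymphomas shared with an earlier series gave -0.77. The Bmi1 change was 0.89 in 1467 and 0.93 in 2949, where the fibroblast list changed by -0.11 and 0.52, and -0.41 in 403 and -0.24 in 5560, where the list changed by 4.50 and 4.30. For the other 9 members r with the fibroblast list lay between -0.50 and 0.30, and no relation with the macrophage or G2/M list passed.

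**Figure D5:**
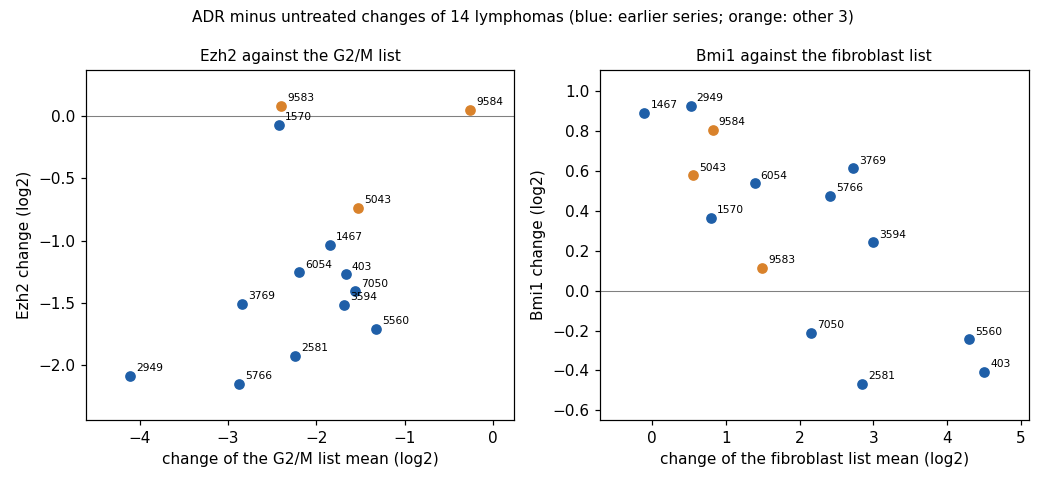
ADR minus untreated changes of 14 lymphomas (log2): Ezh2 against the G2/M list mean on the left, Bmi1 against the fibroblast list mean on the right; each point is a lymphoma, orange for the 3 outside the earlier series. On the left 1570, 9583 and 9584 lie near 0 on the Ezh2 axis over G2/M changes from -2.43 to -0.26. On the right Bmi1 lies between 0.93 in 2949 and -0.47 in 2581 and tends to be lower where the fibroblast list rose more (r = -0.77).

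With the fibroblast change as a covariate, the value at no fibroblast change was -0.73 ± 0.30 for Ezh2 (adjusted p = 0.139), -0.44 ± 0.14 for Suz12 (0.0511), -0.21 ± 0.20 for Jarid2 (0.615), -0.07 ± 0.12 for Eed (0.811) and 0.26 ± 0.20 for Ezh1 (0.497). Bmi1 stood at 0.81 ± 0.14 (adjusted p = 0.00317) and was the 1 member called, against 10.9% of all genes. The fibroblast list changed by less than 1 in 1467, 1570, 2949, 5043 and 9584. In these 5 lymphomas the Suz12 change lay between -0.95 and -0.22, all negative, while Ezh2 lay between -2.09 and 0.05, Jarid2 between -1.11 and 0.51, Eed between -0.27 and 0.44 and Ezh1 between -0.22 and 1.33. Without 403 and 5560 there were 5 members called, 2 higher and 3 lower, against 24.7% of all genes. With the macrophage change as a covariate 0 members were called by limma, against 0.588% of all genes, with Ezh2 at -1.07 ± 0.42 (adjusted p = 0.231) and Suz12 at -0.35 ± 0.17 (adjusted p = 0.343). Of the 10 members only Ezh2 had an unadjusted p under 0.05 there (0.0227).

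The labels describe 11 of the lymphomas as reanalysed from an earlier series, and the other 3 (5043, 9583 and 9584) may be another batch. Within the 11, Ezh2 changed by -1.45 ± 0.16, Suz12 by -0.72 ± 0.10, Jarid2 by -0.60 ± 0.14, Eed by -0.33 ± 0.06 and Ezh1 by 0.49 ± 0.13. The same 5 members were called there, against 26.3% of all genes. Within the 3 the changes were -0.20, -0.44, -0.07, 0.12 and 0.28, and 0 members were called by limma, against 0.0055% of all genes in that small fit, with Suz12 and Bmi1 at an unadjusted p under 0.05 (0.0226 and 0.0302). The difference between both sets was -1.25 ± 0.34 for Ezh2 and -0.45 ± 0.14 for Eed, at unadjusted p = 0.00225 and 0.00525 but adjusted p = 0.864 for both. Of all genes 0.0055% passed that test and none of the 10 members did. Suz12 was negative in all 3 of these lymphomas.

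Likeness of pattern was taken as Pearson r over the 14 changes, as a description over points that share arrays. This r takes no account of the size or direction of the mean change. Most like Ezh2 outside the members were the centriole gene Cep295 (r = 0.92), the centrosomal Cep43 (0.90), Cdkal1 (0.88), Rbm41 (0.87) and the centriolin gene Cntrl (0.86). Their mean changes were -0.89, -0.72, -0.17, -0.11 and -0.52, beside -1.18 for Ezh2. Among the members Jarid2 (0.79) and Rnf2 (0.65) were nearest to Ezh2, and Kdm6b (-0.04) farthest. Most like Kdm6b were the DNA repair gene Mgmt (0.88), the H3K4 demethylase gene Kdm5b (0.87), the phosphorylase kinase gene Phka1 (0.84), 1700007E05Rik (0.80) and the small heat shock gene Hspb1 (0.80). Their mean changes were 0.28, 0.23, -0.04, 0.07 and -0.30, beside -0.30 for Kdm6b. The untreated mean of 1700007E05Rik, 2.78, was near the low end of the scale.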

How the data were processed

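The series holds 28 Affymetrix arrays, an untreated and an ADR culture of each of 14 lymphomas. The deposited values are log2 expression values of 45101 probe sets, made with RMA in Partek 6.5 per the submitters' processing notes. The probe annotation named 1 gene for 34945 probe sets, several for 932 and none for 9160, and 64 were controls. The probe set with the highest mean stood for each of 18193 genes. RMA quantile normalization sets all arrays to 1 distribution, so changes are relative to it.

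The limma package (version 3.58.1, R 4.3.3) fitted the paired changes with lymphoma as a block and Benjamini-Hochberg adjustment over all genes (threshold 0.05). The lymphoma number in the labels pairs the arrays, and deviations of same-lymphoma arrays correlated at 0.27 to 0.61 (median 0.48). Each pair is 1 lymphoma, so n counts lymphomas. Paralog differences used the exact two-sided sign-flip test, and relations 100000 permutations. On simulated data with 18193 genes the paired test recovered 68.7%, 95.5% and 97.0% of changes of 0.5, 1 and 2, with 6 false among 180 calls. Only 67, 67 and 66 genes were changed, each equally in every lymphoma and with noise independent between genes. In the real data 28.7% of genes were called and changes varied between lymphomas, so these rates need not hold there.

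The members and lists were chosen with earlier results of these data known. Named genes are the members, the genes of the Polycomb lists, and the 5 genes most like Ezh2 and the 5 most like Kdm6b in their changes. Alternatives covered the block, the probe set rule, scaling, a filter on dim genes, subsets of lymphomas, marker changes as covariates and each lymphoma left out. Leaving out 1570 for its 3′ signal, the Gapdh covariate and the other Ezh1 probe sets in the paralog difference were added after seeing the data. A probe set listed for Kdm6b and another gene was not used here.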

Additional observations from a re-analysis of the deposited data

How the results depend on the processing

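Of the changes past the threshold, Ezh2, Suz12 and Jarid2 kept direction and call under every alternative run except the other 3 lymphomas alone and the fibroblast and macrophage covariates, where direction held and the call was lost. No member passed in the other 3 lymphomas, where 1 gene was called higher and 0 lower (1633 and 1073 at an unadjusted limma p under 0.05) and Eed (0.12) and Rnf2 (0.10) turned positive. The fibroblast covariate left 1066 genes higher and 918 lower, with 0 members lower, and the macrophage covariate 54 and 53, with 0 members either way. Without the replicate block 1933 genes were higher and 1723 lower, against 2790 and 2435 with it, and the pairing changed no member's call. The mean of all probe sets called 0 members higher and ended the calls of Ezh1 and Eed but called Rnf2 lower (-0.19). Members higher numbered 2 without lymphomas 403 and 5560. Leaving out 1 lymphoma at a time gave 2419 to 2862 genes higher, 2082 to 2572 lower, 1 to 2 members higher and 4 to 5 lower, and Ring1 changes of -0.012 to 0.057. Ring1 was -0.028 with the Gapdh covariate. Other probe sets reversed Ezh1 (-0.13, -0.063 and -0.12) and Kdm6b (0.048), and the cause was not tested. Rnf2 minus Ring1 passed in the 11 lymphomas (-0.20) and with the most variable probe sets (-0.47), where Rnf2 was read from a dim probe set at -0.45. Bmi1 minus Pcgf2 passed without 403 and 5560 (0.43). Kdm6b minus Kdm6a turned to 0.0093 with the most variable probe sets, where Kdm6a was at -0.31 and Kdm6b stayed at -0.30. Dim probe sets, near the low end of the scale, limit what can be said of Cdkn2a and of the dimmer Ezh1 probe sets.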

Other observations

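With the fibroblast change as a covariate, limma called Pcgf5, a subunit of variant PRC1, which did not pass in the paired fit. Its change was 0.02 (adjusted p = 0.951) in the paired fit and -0.74 ± 0.19 (adjusted p = 0.0178) at no fibroblast change. Pcgf5 was the 1 gene newly called among the 29 further Polycomb and H3K27 genes. Of the 5 calls that held, Crebbp went from 0.38 to 0.83 (adjusted p = 0.00438) and Yaf2 from -0.47 to -0.76 (adjusted p = 0.00261). Among genes not called in either fit, Epop went from -0.70 to 0.64 (adjusted p = 0.170) and Bcor from -0.10 to 0.52 (adjusted p = 0.0865). These genes were named after their values were seen.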
